A study of Sus scrofa with 10 samples.

Results

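Grafts grown from pig germ cells together with testicular fibroblasts (GF) were compared, gene by gene, with grafts grown from testicular fibroblasts alone (FO). The libraries were chosen by their titles: 4 GF and 4 FO libraries, 8 of the 10 libraries of the study, with the other libraries, of control testis, not analysed here. Both kinds of graft started from primary pig cells that were placed with Matrigel, a basement membrane gel, in the skin of the back of a mouse that the labels name SKID, and the tissue was taken 6 months later. The groups differ, per the labels, only in the germ cells that GF grafts received and FO grafts did not. The labels give no age, breed or genotype of the pigs, no cell numbers and no purity of the 2 cell preparations. Whether the replicates are separate animals or cultures is not stated either, and the p-values therefore measure only the spread between these libraries, which may be technical. The design asks whether germ cells change how testicular tissue is remodelled.

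In the testis, germ cells develop inside seminiferous tubules. Spermatogonia divide by mitosis, spermatocytes go through meiosis, and haploid spermatids replace their histones, build an acrosome and grow a flagellum. Sertoli cells carry the germ cells, peritubular myoid cells wrap the tubule and contract, and Leydig cells between the tubules make androgens. Fibroblasts lay down collagen, proteoglycans and the enzymes that cut and anchor them.

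Messenger RNA was read at its 3' end (QuantSeq), so that 1 transcript gives about 1 kind of read whatever its length. Values are each gene's counts scaled to a common library total with TMM factors, in the usual unit CPM, given for libraries 1 to 4 of each group in that order, and differences are log2 fold changes of GF over FO ± SE from edgeR's quasi-likelihood test. A gene was called, and is said to have risen or fallen, at a Benjamini-Hochberg adjusted p under 0.05 over all 13782 genes tested. The counts are of whole tissue pieces, so more cells of a kind and more RNA per cell cannot be told apart. They were made on pig genes, so RNA of the mouse host may have gone uncounted or partly counted.

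The total count was 4033509 to 4887878 per library in FO and 4227357, 4917325, 2915534 and 2948156 in GF 1 to GF 4. GF 3 and GF 4 stood apart. Their totals were the lowest, and genes with names that begin with TRNA took 0.183% and 0.75% of their counts, more than the 0.0601% or less in the other 6 libraries. Genes annotated as tRNA held far less, 53.7 and 138 CPM summed in GF 3 and GF 4, against 17.5 to 46.1 CPM in the other 6. There GF 3 was little above FO 1. The first principal component (63.2% of the variance) placed GF 3 and GF 4 farthest from FO. GF 4 had 0 counts for 13 genes, and GF 3 for 5, that were at 10 CPM or more in the other 7 libraries, while each other library had no such gene. FO 1 and GF 3 carried the most RNA of skeletal muscle genes, 1046 and 443 CPM summed over the list, against 19.99 to 168 CPM in the other 6 libraries. Differences of named genes are therefore given also without GF 3 and GF 4, or without FO 1 and GF 3, where either ends a call or moves the fold by over 1.5 times and FO is not left at or near 0 counts. After a family's counts of calls, parentheses give each count that moved by over 1.5 times, or to or from 0, without 1 library, without either pair, with the replicate number as a block, with DESeq2 or with total count scaling. Without libraries the filter on low counts was run again, so the number of members tested can differ there. Counts over all genes moved too, for example from 2419 higher and 1786 lower to 1369 and 943 without FO 1 and GF 3.

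Of the 13782 genes tested, 4205 were called (30.5%), 2419 higher in GF (17.6%) and 1786 lower (13.0%). Counts of calls in any family below are to be read against these shares. The groups did not overlap, meaning that every GF library lay above or below every FO library, in 4976 genes (36.1%). The median difference was 1.79 on the log2 scale among genes called higher and -1.41 among genes called lower. Scaling by total counts moved the median of all genes from -0.02 to 0.13 on the log2 scale, and the calls then split into 2790 higher and 1249 lower. Without GF 3 and GF 4, 2827 genes were called higher and 2478 lower of 14714 tested. Of the 2419 genes called higher with all libraries, 1926 were called higher there too and 2416 kept their sign. Of the 1786 called lower, 1636 were called lower again, and all 1786 kept their sign. The number called lower fell to 1015 without FO 1, 1172 without FO 2 and 1184 without FO 4, and without FO 1 and GF 3 together 1369 genes were called higher and 943 lower.

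Size as well as call was described for each gene by the 95% interval of its fold. The interval lay wholly beyond a 2-fold change in 1005 genes higher in GF and 452 lower, and wholly beyond 4-fold in 451 higher and 56 lower. It lay wholly within a 2-fold change in either direction for 2608 genes (18.9%), which were therefore measured as changed by less than that. Most of the 9577 genes not called belong to neither class. Genes measured as little changed included common reference genes. ACTG1, a cytoplasmic actin, had 1304, 1292, 1401 and 1232 CPM in GF and 1556, 1586, 1300.4 and 1292 CPM in FO, and its interval ran from -0.53 to 0.27 on the log2 scale. GAPDH, a glycolytic enzyme, had 686, 544, 574 and 955 CPM in GF and 556, 566, 715 and 860.4 CPM in FO, with an interval of -0.50 to 0.56. SERBP1, an mRNA-binding protein, was between 634 and 823 CPM in all 8 libraries, and PPIA, a peptidyl-prolyl isomerase, between 444 and 775 CPM. In all of these genes the groups overlapped.

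By the difference of the group means in CPM, the gene that gained most was CLU, which encodes clusterin, a secreted chaperone that Sertoli cells make in large amounts. CLU had 13626, 15592, 40045 and 44635 CPM in GF 1 to GF 4 and 4929, 6446, 7769 and 3909 CPM in FO 1 to FO 4. Every GF library lay above every FO library, and GF 3 and GF 4 were the highest. CLU rose (2.30 ± 0.40, adjusted p = 0.00159), and the difference was 1.35 without GF 3 and GF 4. ABCC1, a drug and leukotriene exporter, had 568, 709, 2229 and 1859.5 CPM in GF against 143, 233, 202 and 81.5 CPM in FO (3.02 ± 0.48, adjusted p = 0.000972). NFATC2IP had 321, 414, 1671 and 1560.3 CPM in GF against 107, 185, 188 and 93.4 CPM in FO (2.79 ± 0.52, adjusted p = 0.00239). Both genes were highest in GF 3 and GF 4, and both remained called without these libraries, with differences of 1.96 and 1.36. ANKRD35, an ankyrin repeat protein, went from 1.97, 1.74, 1.69 and 1.06 CPM in FO to 162, 278, 2165 and 505 CPM in GF (8.90 ± 0.92, adjusted p = 0.000118). The difference for ANKRD35 was 7.59 without GF 3, 7.68 without FO 1 and GF 3 and 7.09 without GF 3 and GF 4. PABPC4, a poly(A)-binding protein, rose (1.58 ± 0.30, adjusted p = 0.00255), as did SLC25A29, a mitochondrial carrier of basic amino acids (1.74 ± 0.32, adjusted p = 0.002), and TMEM158, a membrane protein (2.53 ± 0.38, adjusted p = 0.000717). All GF libraries of these genes were above all FO libraries.

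Genes that lost most by the same measure are given next. COX1, a subunit of cytochrome oxidase encoded in the mitochondrion, had 1682, 2312, 3606 and 2448 CPM in GF 1 to GF 4 and 14161, 8051, 9643 and 6001 CPM in FO 1 to FO 4. COX1 fell (-1.91 ± 0.31, adjusted p = 0.00108), with FO 1 the highest of all libraries and GF 1 the lowest. RPS27A, which encodes ubiquitin fused to a ribosomal protein, had 2840.1, 2038, 1358 and 1048 CPM in GF against 9693, 7593, 5797 and 8176 CPM in FO (-2.10 ± 0.31, adjusted p = 0.000719). TPT1, a translationally controlled protein of growing cells, had 5458, 4768, 2890.3 and 3434 CPM in GF against 7749.7, 8843, 9457 and 8531 CPM in FO (-1.06 ± 0.23, adjusted p = 0.00531). Neither pair of groups overlapped.

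**Figure D1:**
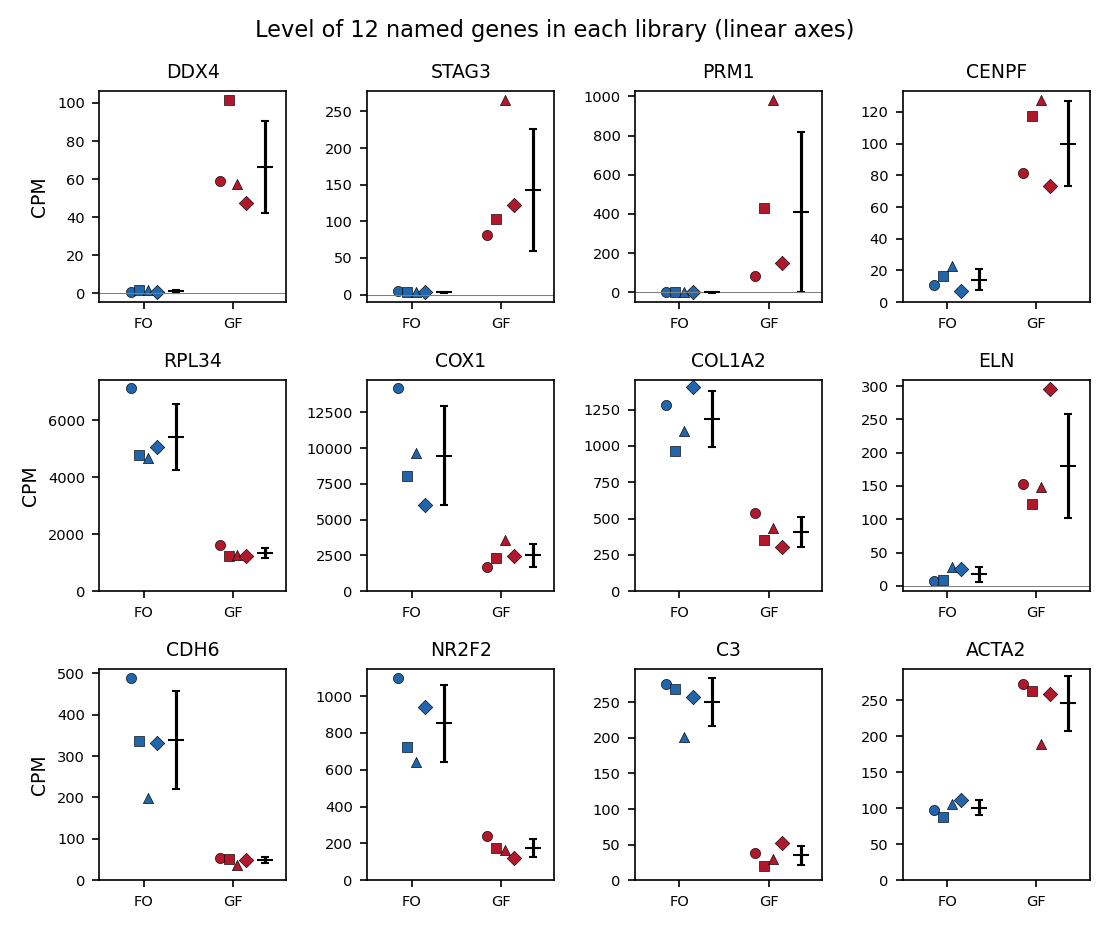
CPM of 12 genes in the 4 FO (blue) and 4 GF (red) libraries on linear axes; each point is 1 library (circle, square, triangle and diamond for libraries 1 to 4), and the bar is the group mean ± SD. DDX4, STAG3, PRM1, CENPF, ELN and ACTA2 are higher in all GF libraries, the other 6 genes are lower in all GF libraries, and PRM1 spreads most among the GF libraries.

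Germ cell families are described first. Many of their members had too few counts in FO to be kept by the filter on low counts and were tested only because GF was high. Such members had to differ, so the counts of calls below are a description, and the sum over all members found in the table, tested or not, is given beside them. Over all genes, 422 passed the filter through GF alone, of which 411 were called higher, and 101 through FO alone, of which 89 were called lower. Among the genes called higher, 44 had 0 counts in all FO libraries.

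The piRNA pathway silences transposons in germ cells with small RNAs bound to PIWI proteins. Its 29 members found summed to 688, 1256, 1340.1 and 557 CPM in GF 1 to GF 4 and 112, 114, 103 and 107 CPM in FO 1 to FO 4, so that the lowest GF library was above every FO library. Of the 24 members tested, 17 were called higher and 1 lower (0 lower without FO 1, FO 2, FO 4 or GF 2, with total count scaling or without both FO 1 and GF 3), and 10 were tested through GF alone. DDX4, the germ cell RNA helicase known as VASA (chromosome 16, 34879701 to 34983701 in Sscrofa11.1), had 59.1, 101, 57.6 and 47.4 CPM in GF 1 to GF 4 and 0.562, 1.96, 1.69 and 0.425 CPM in FO 1 to FO 4. DDX4 rose (5.78 ± 0.48, adjusted p = 5.53e-05), and the groups were far apart. PIWIL1, the PIWI protein of meiotic and later cells (chromosome 14, 24729346 to 24760056), had 124, 247, 469 and 158 CPM in GF against 0.281, 1.31, 1.48 and 0.851 CPM in FO. PIWIL1 rose by 7.90 ± 0.57 (adjusted p = 2.96e-05), or by 7.15 without FO 1 and GF 3. GTSF1, a partner of PIWI proteins, rose from 2.81, 6.54, 3.17 and 3.19 CPM in FO to 129, 344, 244 and 97.3 CPM in GF (5.68 ± 0.49, adjusted p = 6.31e-05). TDRD7, a Tudor protein that other cells also make, overlapped between the groups, with 23.5, 37.1, 22.6 and 4.22 CPM in GF and 27.5, 27.7, 19.4 and 16.6 CPM in FO.

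Genes of the meiotic chromosome and of recombination summed to 621, 839, 1232 and 512 CPM in GF 1 to GF 4 and 215, 206, 199.6 and 217 CPM in FO 1 to FO 4. Of 23 tested, 16 were called higher and 1 lower. Of all members tested, 7 were tested through GF alone, and 10 others were too low to test. STAG3, a cohesin subunit of meiosis (chromosome 3, 8175908 to 8211898), had 81.2, 103, 265 and 122 CPM in GF 1 to GF 4 and 4.49, 3.27, 2.96 and 3.19 CPM in FO 1 to FO 4. GF 3 was highest, and every GF library exceeded the FO libraries by more than the spread within FO (5.36 ± 0.43, adjusted p = 5.24e-05, and 4.74 without GF 3 and GF 4). SMC1B, another meiotic cohesin subunit, had 55.4, 68.1, 111 and 48.1 CPM in GF against 1.12, 5.88, 4.22 and 4.25 CPM in FO (4.15 ± 0.45, adjusted p = 0.000143). HORMAD1, which marks unpaired chromosome axes, had 25.4, 51.3, 32.5 and 37.6 CPM in GF against 0.843, 2.18, 0.634 and 1.7 CPM in FO (4.73 ± 0.45, adjusted p = 9.34e-05). MEIOB, a DNA-binding protein of recombination, was at similar levels in both groups, with 54.6, 48.8, 32.5 and 33.7 CPM in GF and 38.5, 30.1, 39.3 and 56.4 CPM in FO and a 95% interval of -0.56 to 0.66 on the log2 scale.

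Spermatid chromatin genes, whose products replace histones in the condensing nucleus, had the widest spread among GF libraries. The 9 members found summed to 222, 1112, 2734 and 495 CPM in GF 1 to GF 4 and 14.3, 17.4, 9.72 and 16 CPM in FO 1 to FO 4. GF 3 was highest and GF 1 lowest of the GF libraries, more than 10-fold apart, and all GF libraries lay above FO. All 8 members tested were called higher, and 6 were tested through GF alone. TNP1, transition protein 1 (chromosome 15, 119037492 to 119038099), had 42.4, 277, 696 and 116 CPM in GF and 1.12, 0, 0 and 0 CPM in FO. TNP1 rose (10.08 ± 1.16, adjusted p = 0.000218), and the difference was 9.13 without GF 3 and 9.31 without GF 3 and GF 4. PRM1, protamine 1 (chromosome 3, 31861087 to 31861529), had 85.9, 431, 981 and 149 CPM in GF and 2.81, 0, 0 and 0.213 CPM in FO, where most counts came from FO 1. PRM1 rose (9.24 ± 1.12, adjusted p = 0.000256), with 8.36 without GF 3 and 8.63 without GF 3 and GF 4. Without FO 1, the other FO libraries held a single PRM1 count, and the ratio of GF to FO was 5284, with a 95% counting interval of 948 to 208722. Without FO 1 and GF 3 it was 3455. These intervals cover counting error only.

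Acrosome and sperm surface genes followed the same order of libraries. The 35 members summed to 413, 1142, 1378 and 527 CPM in GF 1 to GF 4 and 36.2, 37.7, 43.1 and 41.3 CPM in FO 1 to FO 4. Of 16 tested, 14 were called higher and none lower, and 11 were tested through GF alone. CRISP2, a cysteine-rich protein of the acrosome and tail, had 82.1, 223, 121 and 61.5 CPM in GF against 0.281, 0.871, 0 and 0.851 CPM in FO (7.82 ± 0.64, adjusted p = 5.53e-05). ADAM2, a sperm surface protein needed for fertilisation, had 20.5, 40.5, 47.3 and 25.6 CPM in GF against 0.562, 0.654, 0.422 and 0.638 CPM in FO (5.81 ± 0.47, adjusted p = 5.24e-05). ACRBP, the proacrosin-binding protein, had 22.8, 83.9, 95 and 59 CPM in GF against 1.12, 0.871, 1.06 and 1.7 CPM in FO (5.74 ± 0.51, adjusted p = 6.31e-05). In each of these genes the groups did not overlap.

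Several enzymes have a copy used by germ cells in place of the common one. The 11 such isoenzymes found summed to 112, 286, 193 and 81.8 CPM in GF 1 to GF 4 and 0.281, 1.74, 1.48 and 1.49 CPM in FO 1 to FO 4. All 5 that were tested passed through GF alone and were called higher. GK2, a glycerol kinase of spermatids, had 42, 82.5, 64.3 and 23.9 CPM in GF and 0 counts in every FO library, which makes it at least 333-fold higher when set against 3 counts over the FO group.

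**Figure D2:**
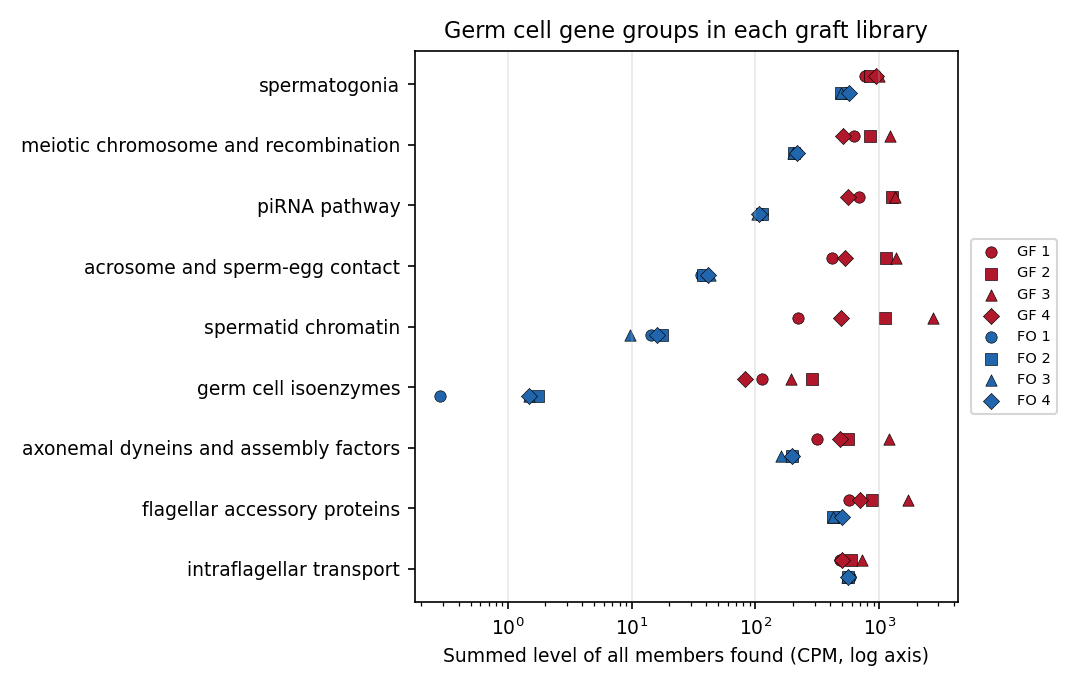
Summed CPM of 9 germ cell gene groups in each library on a log axis, over all members found in the table; each point is 1 library (GF red, FO blue). The GF libraries lie above all FO libraries in every group except intraflagellar transport, and spermatid chromatin genes spread most among the GF libraries.

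The flagellum is built from axonemal dyneins, their assembly factors, radial spokes, dense fibres and a sheath, and some of these parts are shared with cilia of other cells. Axonemal dyneins and their assembly factors summed to 313, 562, 1195 and 479.8 CPM in GF 1 to GF 4 and 201, 196, 162 and 197 CPM in FO 1 to FO 4. Of the 23 tested, 12 were called higher and 1 lower, and 5 were tested through GF alone. DRC7, of the nexin-dynein regulatory complex, had 9.17, 23.3, 42 and 39.3 CPM in GF against 0.281, 0.436, 0.422 and 0.851 CPM in FO (5.72 ± 0.62, adjusted p = 0.000144, and 4.94 without GF 3 and GF 4). DNAH9, an outer arm dynein heavy chain of cilia, overlapped between the groups, with 15.6, 16.7, 27.9 and 15.8 CPM in GF and 17.7, 17.4, 9.72 and 19.8 CPM in FO. Of flagellar accessory proteins, 15 of 22 were called higher and none lower, and 11 were tested through GF alone, and the sums were 573 to 1721 CPM in GF and 424 to 496 CPM in FO. SPAG6 and SPAG17, of the central pair of microtubules, had 11.3, 35.7, 34.6 and 11.9 and 17.7, 25.5, 59 and 19.3 CPM in GF, and SPAG6 had at most 2.18 and SPAG17 at most 1.97 CPM in FO. Both rose, by 4.33 ± 0.60 and 4.67 ± 0.70 (adjusted p = 0.000522 and 0.000746). SPAG9, a scaffold of kinase signalling with a similar name, had 155, 161, 207 and 131 CPM in GF and 227, 199, 179 and 171 CPM in FO and was not called.

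Of the CFAP proteins, which cilia and flagella share, 8 of 16 tested were called higher and none lower (3 higher without both FO 1 and GF 3). Of the CFAP members tested, 3 were tested through GF alone. The CFAP sums were 331 to 863 CPM in GF and 214 to 257 CPM in FO. CFAP97 rose from 43.3, 42.5, 34.4 and 43.8 CPM in FO to 98.1, 122, 135 and 92.7 CPM in GF (1.45 ± 0.22, adjusted p = 0.000865). The particle of intraflagellar transport, which carries tubulin into cilia of most cells, had sums of 482 to 727 CPM in GF and 553 to 585 CPM in FO. Of the 14 tested, 4 were called higher and 1 lower (0 higher without both FO 1 and GF 3; 1 higher without FO 1; 2 higher without FO 2, FO 3 or GF 2; 0 lower without FO 1, FO 2, FO 3, FO 4, GF 2 or GF 4, with total count scaling, with the replicate block or without both FO 1 and GF 3; 2 lower without GF 3 or without both GF 3 and GF 4). IFT140 had 26.2, 33.9, 84.4 and 59 CPM in GF against 13.8, 15.5, 20.3 and 15.1 CPM in FO (1.65 ± 0.37, adjusted p = 0.00611). Without GF 3 and GF 4 its difference was 0.90 (adjusted p = 0.0149), and it was not called without FO 1 and GF 3 (1.22, adjusted p = 0.0525). IFT20 had 73.8, 107, 63.6 and 87.5 CPM in GF and 133, 109.6, 107 and 101 CPM in FO and was not called. Members of the CATSPER calcium channel also differed among themselves. CATSPERZ rose from 0.562, 1.96, 0.845 and 1.28 CPM in FO to 20.04, 56.8, 115 and 58.3 CPM in GF (5.69 ± 0.59, adjusted p = 0.000118), with 5.01 without GF 3 and GF 4 and 5.02 without FO 1 and GF 3. CATSPER1 had 3.62, 10.2, 15.9 and 20.4 CPM in GF and 15.7, 10.9, 12.5 and 18.7 CPM in FO and CATSPER2 had 10.4, 12.6, 16.3 and 11.2 CPM in GF and 7.86, 9.15, 6.97 and 11.06 CPM in FO, and neither was called. The CATSPER sums over 9 members were 45.6 to 193 CPM in GF and 26.4 to 42.1 CPM in FO, and 1 CATSPER gene was tested through GF alone. Intraflagellar transport genes had 28.6% called higher and 7.14% lower, against 17.6% and 13.0% of all genes.

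TEX and SPATA genes are grouped by name only, for expression in the testis. Of 16 TEX genes tested, 10 were called higher and none lower, and 5 were tested through GF alone. TEX14, of the bridges that join dividing germ cells, had 24.7, 27.6, 32.5 and 44.6 CPM in GF against 1.69, 1.96, 1.69 and 1.49 CPM in FO (4.22 ± 0.37, adjusted p = 6.31e-05), with GF 4 the highest. Of 13 SPATA genes tested, 4 were called higher and none lower (8 higher without FO 1, FO 2, FO 3, FO 4, GF 1 or GF 4 or without both GF 3 and GF 4). Without both GF 3 and GF 4, 19 SPATA genes were tested. SPATA22, which acts with MEIOB in recombination, had 22, 39.3, 26.9 and 9.13 CPM in GF against 2.53, 2.18, 1.48 and 1.06 CPM in FO (3.75 ± 0.52, adjusted p = 0.000526). Of 101 CCDC genes tested, named for coiled-coil domains, 36 were called higher and 8 lower (17 lower of 108 tested without GF 3 and GF 4). That is 35.6% higher and 7.92% lower, against 17.6% and 13.0% of all genes. Among these members, 9 CCDC genes and 1 SPATA gene were tested through GF alone.

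Markers of spermatogonia that were called were all higher, but 8 of the 14 tested were not called. The median difference of the list was 0.31 on the log2 scale. Higher calls took 42.9%, against 17.6% of all genes. The 22 members found summed to 769, 838, 987 and 946 CPM in GF 1 to GF 4 and 531, 491, 488 and 565 CPM in FO 1 to FO 4, and LIN28A and NANOS2 were at 0 in all 8 libraries. Of 14 tested, 6 were called higher and none lower, and 4 were tested through GF alone. DAZL, an RNA-binding protein of germ cells from the embryo onward (chromosome 13, 3762896 to 3783848), had 77.6, 57.2, 36.7 and 7.73 CPM in GF 1 to GF 4 and 0.281, 1.96, 1.48 and 0.213 CPM in FO 1 to FO 4. It rose (5.44 ± 0.77, adjusted p = 0.000556), and GF 4 was the lowest of the GF libraries. ZBTB16, a factor that keeps spermatogonial stem cells and is also made by other cells, had 186, 209.8, 411 and 419 CPM in GF against 64, 103, 111 and 101 CPM in FO (1.69 ± 0.32, adjusted p = 0.00227, and 1.07 without GF 3 and GF 4). It gave a large part of the list's sums, 186 of 769 CPM in GF 1 and 419 of 946 CPM in GF 4. KIT, the receptor of differentiating spermatogonia and of other cells, had 85.3, 70.1, 82.7 and 57.6 CPM in GF and 52.8, 55.5, 82.2 and 91.3 CPM in FO, and ID4, a marker of spermatogonial stem cells, had 92.9, 118, 79.8 and 116 CPM in GF and 219, 106, 93.1 and 118 CPM in FO. Neither was called, and their groups overlapped. Of 12 pluripotency genes found, none had enough counts to be tested, and their sum was at most 4.57 CPM in any library.

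Dividing cells were tracked by motors, centromere proteins, replication factors and cyclins. Centromere proteins summed to 516, 785, 890.0 and 497 CPM in GF 1 to GF 4 and 289, 272, 263 and 249 CPM in FO 1 to FO 4, with no overlap, and 6 of 18 were called higher and 1 lower (3 higher without both FO 1 and GF 3; 0 lower without FO 1). CENPF, a kinetochore protein, had 81.4, 118, 128 and 73.1 CPM in GF against 10.7, 16.3, 22.8 and 7.23 CPM in FO (2.80 ± 0.36, adjusted p = 0.000368). CENPV rose by 2.13 ± 0.30 (adjusted p = 0.000514), with GF 2 the highest at 330.0 CPM. CCNB2, a cyclin of mitosis and meiosis, had 17.7, 30.3, 44.9 and 6.67 CPM in GF against 2.53, 2.4, 3.38 and 1.49 CPM in FO (3.33 ± 0.57, adjusted p = 0.00153). The kinase CDK14 instead fell, from 86.8, 73.6, 65.7 and 78.1 CPM in FO to 21.1, 23.1, 20.5 and 25.3 CPM in GF (-1.76 ± 0.22, adjusted p = 0.000344). Of cyclins and cyclin-dependent kinases together, 9 of 31 were called higher and 6 lower (3 lower without FO 1 or without both FO 1 and GF 3). That is 29.0% higher and 19.4% lower, against 17.6% and 13.0% of all genes, and 1 was tested through FO alone. Centromere proteins had 33.3% called higher and 5.56% lower, and 1 was tested through GF alone.

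Replication genes did not move together, with 21.1% called higher and 7.89% lower, against 17.6% and 13.0% of all genes. Of 38 replication genes (MCM, origin, GINS and polymerase subunits), 8 were called higher and 3 lower (5 higher without both FO 1 and GF 3; 1 lower without FO 1; 5 lower with DESeq2; 6 lower without GF 1), and the sums overlapped at 1097 to 1348 CPM in GF and 1246 to 1329 CPM in FO. ORC1, of the origin recognition complex, rose from 3.37, 4.14, 3.8 and 3.19 CPM in FO to 10.2, 18.5, 20.5 and 12.3 CPM in GF (2.07 ± 0.41, adjusted p = 0.00327). POLE3, a polymerase subunit with a histone fold, fell from 317, 306, 271 and 310.1 to 152, 169, 151 and 98.7 CPM (-1.08 ± 0.22, adjusted p = 0.00374). Of kinesins, 7 of 33 were called higher and 2 lower, a share of higher calls near that of all genes (4 higher without both FO 1 and GF 3; 11 higher without GF 4; 1 lower without FO 1, FO 2, FO 3, FO 4, GF 2, GF 3 or GF 4, with total count scaling, without both FO 1 and GF 3 or without both GF 3 and GF 4). Among the kinesins, 3 were tested through GF alone. KIF15, a spindle motor, rose (2.22 ± 0.37, adjusted p = 0.0013). KIF13A, a motor of vesicle transport, fell (-1.32 ± 0.21, adjusted p = 0.000905). Of tubulins, 5 of 14 were called higher and none lower (3 higher without FO 2 or FO 4; 1 lower without both GF 3 and GF 4). Higher calls thus took 35.7% of tubulins, against 17.6% of all genes. TUBB4B, a beta-tubulin of axonemes, had 205, 311, 409.8 and 215 CPM in GF 1 to GF 4 and 49.7, 49.7, 57.9 and 50.4 CPM in FO 1 to FO 4 (2.46 ± 0.26, adjusted p = 0.000143), while TUBA1B, the common alpha-tubulin, had 1034, 1036, 539 and 690.2 CPM in GF and 949.6, 1453, 1041 and 844 CPM in FO and was not called. Tubulins, actins and ribosomal proteins have near-identical copies, between which counts may have been split in a way that is not known here.

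Cytosolic ribosomal proteins, which make up the particles that translate mRNA, were called lower in most members. Their 84 genes summed to 98703, 81655, 88931 and 95952 CPM in GF 1 to GF 4 and 184896, 156891, 156099 and 163289 CPM in FO 1 to FO 4, with no overlap. Of 82 tested, 54 were called lower and 1 higher (0 higher without FO 1, FO 2, FO 4, GF 3 or GF 4, without both FO 1 and GF 3 or without both GF 3 and GF 4; 2 higher without GF 1 or GF 2), against 13.0% and 17.6% of all genes, and the median difference was -0.99 on the log2 scale against -0.02 for all genes. Without GF 3 and GF 4, 57 were called lower and 0 higher. RPL34 had 1613, 1226, 1274 and 1244 CPM in GF 1 to GF 4 and 7132, 4790.4, 4659 and 5048 CPM in FO 1 to FO 4 (-2.01 ± 0.22, adjusted p = 0.000144). RPL26 had 975, 743, 658 and 789.6 CPM in GF against 3704, 2594, 2695 and 2942 CPM in FO (-1.91 ± 0.22, adjusted p = 0.000183). RPL4 had 731, 509, 605 and 647 CPM in GF against 1989.7, 1788, 2020.4 and 1894 CPM in FO (-1.63 ± 0.20, adjusted p = 0.000256). All 4 GF libraries of these genes were below all FO libraries. The gene called higher was RPLP2, a stalk protein, with 2224, 2287, 6782 and 5329.6 CPM in GF and 1843, 1673, 2089 and 1931 CPM in FO, and only GF 3 and GF 4 were far from FO. Its difference of 1.14 ± 0.34 (adjusted p = 0.0257) was 0.27 (adjusted p = 0.242) without GF 3 and GF 4, and the call was lost without FO 1, FO 2, FO 4, GF 3 or GF 4 (adjusted p from 0.0588 to 0.0766) and without FO 1 and GF 3 (0.164).

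Most protein genes of the mitochondrial genome also fell. They summed to 56728, 51358, 54644 and 69654 CPM in GF 1 to GF 4 and 130993, 84907, 91914 and 84581 CPM in FO 1 to FO 4, with FO 1 the highest. Of 13 tested, 10 were called lower and none higher (5 lower without both FO 1 and GF 3; 6 lower without FO 1). Beside COX1, ND3 of complex I had 5112, 4317, 5153 and 5388 CPM in GF against 13302, 8463, 9926 and 11066 CPM in FO (-1.10 ± 0.20, adjusted p = 0.00225). ATP8 of ATP synthase had 57.3, 41.8, 46.6 and 39 CPM in GF against 140.4, 115, 91.7 and 79.6 CPM in FO (-1.21 ± 0.25, adjusted p = 0.00401). COX3 overlapped, with 12912, 14419, 11510.2 and 17901 CPM in GF and 18173, 12080.0, 12653 and 9806 CPM in FO. The nuclear genes of the same complexes were called in both directions. NDUF subunits had 21.1% called higher and 7.89% lower, and complexes III to V had 7.14% and 21.4%, against 17.6% and 13.0% of all genes. Of NDUF subunits of complex I, 8 of 38 were called higher and 3 lower (4 higher without FO 1, FO 2 or FO 4 or without both FO 1 and GF 3; 5 higher without FO 3, GF 3 or GF 4 or without both GF 3 and GF 4; 0 lower without FO 1 or FO 2 or with total count scaling; 1 lower without FO 3, GF 3 or GF 4 or without both FO 1 and GF 3; 5 lower without GF 1; 7 lower with DESeq2; 8 lower with the replicate block). Of complexes III to V, 2 of 28 were called higher and 6 lower (0 higher without both FO 1 and GF 3; 1 higher without FO 1, FO 2, FO 3, FO 4 or GF 4; 2 lower without FO 1 or FO 2, with total count scaling or without both FO 1 and GF 3). COX7C, a small subunit of cytochrome oxidase, fell from 652, 614, 440.2 and 388 CPM in FO to 251, 190.1, 157 and 114 CPM in GF (-1.55 ± 0.28, adjusted p = 0.00196).

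Other translation genes were called in both directions, at shares near or below those of all genes (17.6% higher and 13.0% lower). Mitochondrial ribosomal proteins had 16% called higher and 4% lower, and initiation factors had 13.7% each way. Mitochondrial ribosomal proteins summed to 3301, 3191, 3692 and 3661 CPM in GF 1 to GF 4 and 2853, 2877, 3036 and 2814 CPM in FO 1 to FO 4, higher in all GF libraries. Of the 75 tested, 12 were called higher and 3 lower (7 higher without FO 1 or without both FO 1 and GF 3; 0 lower without both FO 1 and GF 3; 1 lower without FO 1 or FO 2 or with total count scaling; 5 lower without GF 2 or with the replicate block). MRPS34 had 57.8, 97.7, 144 and 67.8 CPM in GF against 34.5, 32.2, 33.6 and 35.5 CPM in FO (1.43 ± 0.29, adjusted p = 0.00383). Initiation factors were divided, with 7 of 51 called higher and 7 lower (2 higher without FO 1 or without both FO 1 and GF 3; 4 higher without FO 2; 3 lower without FO 1, FO 2 or FO 4 or with total count scaling; 4 lower without FO 3 or without both FO 1 and GF 3; 11 lower with the replicate block; 12 lower with DESeq2; 15 lower without both GF 3 and GF 4). EIF3E fell from 627, 502, 436 and 431 CPM in FO to 173, 171, 158 and 155 CPM in GF (-1.60 ± 0.21, adjusted p = 0.000348), while EIF4G1, the scaffold of the cap-binding complex, rose from 56.2, 56.6, 64.8 and 54.7 to 118, 148, 203 and 210.4 CPM (1.55 ± 0.24, adjusted p = 0.000885).

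Genes of protein folding and turnover were called in both directions. Proteasome genes had 6.38% called higher and 17.0% lower, against 17.6% and 13.0% of all genes. Heat shock and DNAJ genes had 14.7% and 7.35%, both below those shares, and 5 of them were tested through GF alone. Of proteasome genes, 3 of 47 were called higher and 8 lower (5 higher with the replicate block; 6 higher without GF 1, with DESeq2 or without both GF 3 and GF 4; 8 higher with total count scaling; 4 lower without FO 4 or without both FO 1 and GF 3; 5 lower without FO 1). PSMD2, of the regulatory particle, rose (1.06 ± 0.19, adjusted p = 0.00194). PSME2, the interferon-inducible activator, fell from 168, 119, 126 and 168 CPM in FO to 44.3, 29.9, 60.1 and 65.7 CPM in GF (-1.54 ± 0.28, adjusted p = 0.00194). In the CCT chaperonin, which folds actin and tubulin, 3 of 9 subunits rose. They were CCT6B, the testis form (3.42 ± 0.55, adjusted p = 0.00107), CCT3 (1.13 ± 0.23, adjusted p = 0.00349) and CCT7 (1.63 ± 0.33, adjusted p = 0.00374). Of heat shock and DNAJ proteins, 10 of 68 were called higher and 5 lower (2 lower without both FO 1 and GF 3; 3 lower without FO 1 or FO 2; 8 lower with DESeq2; 9 lower without GF 1). DNAJC5G had 11.3, 18.5, 64.7 and 32.7 CPM in GF and 0 counts in all FO libraries, at least 159-fold higher against 3 counts over the FO group, and at least 89.1-fold without GF 3 and GF 4 (88.8-fold without FO 1 and GF 3). DNAJB1, a partner of HSP70, rose from 7.3, 10.2, 16.9 and 8.72 to 30.7, 70.5, 115 and 48.8 CPM (2.61 ± 0.43, adjusted p = 0.00118). HSP90AB1, the abundant HSP90, had 1828, 1749, 2977 and 2934 CPM in GF and 1953, 1959, 2318 and 2230.3 CPM in FO and was not called.

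**Figure D3:**
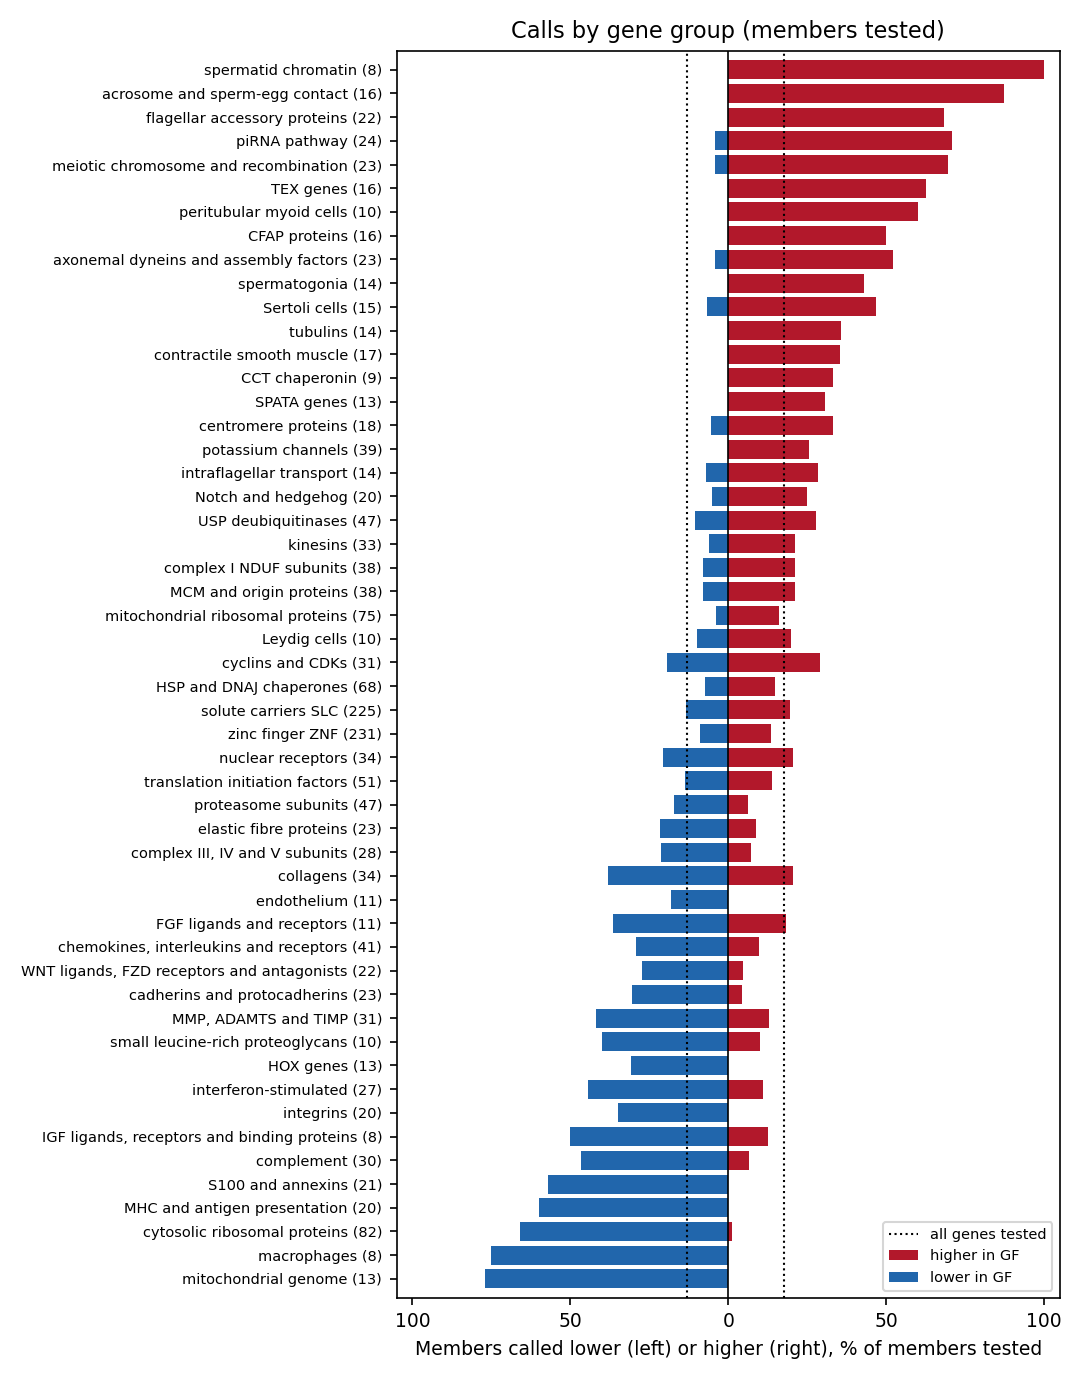
Share of the tested members of each gene group called higher (right, red) or lower (left, blue) in GF, in percent, with the number tested in parentheses and dotted lines at the shares of all genes tested, 17.6% higher and 13.0% lower. Germ cell groups extend farthest to the right, in part because members low in FO were tested only through GF, and the mitochondrial genome, macrophages, cytosolic ribosomal proteins and MHC extend farthest to the left.

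Families with mixed functions mark the background. The shares of all genes were 17.6% higher and 13.0% lower, and the USP genes below had 27.7% and 10.6%. Of the members below, 3 zinc finger genes and 6 solute carriers were tested through GF alone, and 4 solute carriers through FO alone. Of 231 ZNF zinc finger genes tested, 31 were called higher and 21 lower, both below the shares of all genes (12 higher without both FO 1 and GF 3; 16 higher without FO 1; 17 higher without FO 4; 19 higher without FO 2; 7 lower without FO 1 or without both FO 1 and GF 3; 10 lower without FO 2; 12 lower without FO 4 or with total count scaling). Of 225 solute carriers, 44 were called higher and 30 lower (16 lower without both FO 1 and GF 3; 17 lower without FO 1 or FO 4), close to those shares. Ubiquitin proteases of the USP name had 13 of 47 called higher and 5 lower (1 lower without FO 1 or FO 2; 2 lower with total count scaling or without both FO 1 and GF 3; 3 lower without FO 3 or GF 4). USP44, which acts in mitosis, had 10.7, 43.6, 60.4 and 19.7 CPM in GF against 3.37, 3.27, 6.13 and 4.47 CPM in FO (2.95 ± 0.53, adjusted p = 0.00192). Among all 143 symbol stems with 10 or more members tested, 2 had no member called, CHST with 11 and HSPA with 12. The stems with the largest share called higher were TEX (10 of 16), CFAP (8 of 16) and KDM (7 of 16, with none lower), the last being histone demethylases. The largest shares called lower were in RPL (34 of 47), ANXA (6 of 10) and RPS (21 of 42).

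The matrix of the grafts differed by component. Both chains of type I collagen were lower in GF. COL1A2, a chain of type I collagen, had 539, 351, 431 and 301 CPM in GF 1 to GF 4 and 1280.2, 964, 1105 and 1402 CPM in FO 1 to FO 4 (-1.55 ± 0.24, adjusted p = 0.000831). COL1A1, the other chain, had 1125, 617, 654 and 862 CPM in GF and 1424, 1127, 1446 and 2216 CPM in FO, with GF 1 close to FO 2, and its difference of -0.93 ± 0.27 (adjusted p = 0.0215) was not called with total count scaling (adjusted p = 0.0553), without FO 4 (-0.69, 0.0815), without GF 2 (0.0518), without GF 3 (0.051) or without FO 1 and GF 3 (0.0956). Basement membrane collagen moved both ways: COL4A1 rose from 62.4, 49.4, 89.3 and 120.4 CPM in FO to 289, 164, 568 and 509 CPM in GF (2.25 ± 0.40, adjusted p = 0.0019, and 1.49 without GF 3 and GF 4), while COL4A6 fell from 24.2, 25.1, 19 and 29.1 to 6.61, 5.2, 7.07 and 4.92 CPM (-2.03 ± 0.33, adjusted p = 0.00115). COL6A2, of microfibrils around cells, had 256, 202, 974 and 1369 CPM in GF against 102, 91.3, 168 and 146 CPM in FO (2.46 ± 0.55, adjusted p = 0.00577). Its rise was 0.85 without GF 3 and GF 4, and it was not called without FO 1 and GF 3 (adjusted p = 0.0653). Over 34 collagen genes tested, 7 were called higher and 13 lower (3 higher without both FO 1 and GF 3; 4 lower without both FO 1 and GF 3; 7 lower without FO 1). That is 20.6% higher and 38.2% lower, against 17.6% and 13.0% of all genes, and 2 collagens were tested through GF alone.

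Laminins, the other scaffold of basement membranes, also went both ways. LAMA1, a laminin chain best known from embryonic basement membranes, had 107, 98.5, 85.5 and 79 CPM in GF against 19.1, 37.9, 54.7 and 13.6 CPM in FO (1.56 ± 0.38, adjusted p = 0.00957), and was not called without FO 1 and GF 3 (adjusted p = 0.0613). LAMA5 fell from 124, 115, 110.3 and 156 to 58, 29.8, 29 and 63.6 CPM (-1.49 ± 0.30, adjusted p = 0.00348). ELN, elastin, had 153, 123, 149 and 295 CPM in GF 1 to GF 4 and 6.74, 9.37, 28.3 and 25.7 CPM in FO 1 to FO 4 and rose (3.35 ± 0.47, adjusted p = 0.000552). FBLN2, a fibulin of elastic fibres, fell from 140.2, 121, 87.2 and 158 CPM in FO to 29.2, 19.5, 6.36 and 2.81 CPM in GF (-3.09 ± 0.54, adjusted p = 0.00173, and -2.38 without GF 3 and GF 4). Of 23 elastic fibre genes, 2 were called higher and 5 lower (1 higher without FO 1, FO 2, FO 3, GF 1 or GF 4 or without both FO 1 and GF 3; 3 lower without both FO 1 and GF 3; 8 lower without both GF 3 and GF 4). That is 8.70% higher and 21.7% lower, against 17.6% and 13.0% of all genes.

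DCN, decorin, a small proteoglycan that binds collagen fibrils, had 504, 332, 267 and 188 CPM in GF 1 to GF 4 and 1993, 1108, 894 and 1408 CPM in FO 1 to FO 4. GF 1, the highest GF library, was below every FO library (-2.06 ± 0.34, adjusted p = 0.00117). Small leucine-rich proteoglycans summed to 703 to 1086 CPM in GF and 1552 to 2811 CPM in FO. Of the 10 tested, 4 were called lower and 1 higher (0 higher without FO 1 or FO 2, without both FO 1 and GF 3 or without both GF 3 and GF 4; 2 higher with DESeq2, with total count scaling or with the replicate block). Of enzymes that cut matrix and their inhibitors, 13 of 31 were called lower and 4 higher (0 higher without both FO 1 and GF 3; 2 higher without FO 1 or FO 2 or without both GF 3 and GF 4; 6 lower without both FO 1 and GF 3; 8 lower without FO 1 or FO 4). Lower calls took 41.9% of these and 40% of the proteoglycans, against 13.0% of all genes. Higher calls took 12.9% and 10%, against 17.6% of all genes. ADAMTS1 had 23.5, 22.2, 2.83 and 11.9 CPM in GF against 176, 104, 75.4 and 99.97 CPM in FO (-2.88 ± 0.50, adjusted p = 0.00159, and -2.27 without FO 1 and GF 3). ADAMTS19 had 5.33, 5.92, 6.71 and 5.97 CPM in GF against 29.5, 20.9, 23.2 and 30.8 CPM in FO (-2.12 ± 0.32, adjusted p = 0.000746). The gelatinase MMP2 fell (-1.88 ± 0.31, adjusted p = 0.0013), and the inhibitor TIMP1 fell with it (-1.73 ± 0.27, adjusted p = 0.000846), whereas TIMP2 had 959, 849, 862 and 1274 CPM in GF and 600.0, 916, 848 and 711 CPM in FO and was not called.

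Among called cadherins and integrins, more fell than rose. Lower calls took 30.4% of cadherins and 35% of integrins tested, against 13.0% of all genes. Higher calls took 4.35% and 0%, against 17.6% of all genes. Of the integrins, 2 were tested through FO alone. Cadherins, which join neighbouring cells, summed to 424, 351, 317 and 432 CPM in GF 1 to GF 4 and 1431, 1018, 824 and 1035 CPM in FO 1 to FO 4. Of the 23 tested, 7 were called lower and 1 higher (0 higher without FO 1, FO 3, FO 4 or GF 2 or without both FO 1 and GF 3; 4 lower without FO 1 or FO 4, with total count scaling or without both FO 1 and GF 3). CDH6 had 52.4, 51.5, 36.7 and 49.9 CPM in GF 1 to GF 4 and 489, 337, 199 and 331 CPM in FO 1 to FO 4 (-2.83 ± 0.29, adjusted p = 0.000118). CDH2, N-cadherin, fell from 628, 429, 354 and 394 CPM in FO to 177, 140.4, 131 and 163 CPM in GF (-1.56 ± 0.24, adjusted p = 0.000788). Integrins, which hold cells to the matrix, summed to 555 to 895 CPM in GF and 1193 to 1732 CPM in FO. Of the 20 tested, 7 were called lower and none higher (1 higher with DESeq2; 3 lower without FO 1 or FO 4 or without both FO 1 and GF 3; 4 lower without FO 2, FO 3 or GF 3 or with total count scaling). ITGAV had 174, 139, 68.2 and 110.3 CPM in GF against 542, 428, 356 and 318 CPM in FO (-1.74 ± 0.30, adjusted p = 0.00149). ITGB1, the shared beta chain, had 310.4, 307, 202 and 230.1 CPM in GF and 364, 285, 259.8 and 255 CPM in FO and was not called. Of connexins, which form gap junctions, GJA5 fell (-3.49 ± 0.51, adjusted p = 0.000688) and GJC1 rose from 71.3, 98, 101 and 53.6 CPM in FO to 206, 215, 319 and 315 CPM in GF (1.70 ± 0.27, adjusted p = 0.00103).

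Contractile genes of smooth muscle and myoid cells were called in 1 direction with all libraries. Higher calls took 35.3% of them, against 17.6% of all genes. Of 17 tested, 6 were called higher and none lower (3 higher without both FO 1 and GF 3; 1 lower with the replicate block; 2 lower without both GF 3 and GF 4), and the sums were 2239.5, 2381, 3237 and 3868 CPM in GF 1 to GF 4 and 2050.4, 1935, 2113 and 2186 CPM in FO 1 to FO 4. ACTA2, smooth muscle actin, had 273, 262, 188 and 258 CPM in GF 1 to GF 4 and 97.5, 87.4, 106 and 112 CPM in FO 1 to FO 4 (1.29 ± 0.21, adjusted p = 0.00119). MYH11, smooth muscle myosin, rose from 18.5, 20.7, 40.1 and 40.2 CPM in FO to 99.8, 109, 232 and 270.5 CPM in GF (2.57 ± 0.40, adjusted p = 0.000929, and 1.80 without GF 3 and GF 4). TAGLN rose by 1.36 ± 0.26 (adjusted p = 0.00242). MYLK, the kinase of myosin light chain, had 573, 709, 501 and 723 CPM in GF and 574, 614, 527 and 519.7 CPM in FO and was not called.

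In the WNT, FGF and IGF families, more members were called lower than higher. Lower calls took 27.3% of WNT genes and 36.4% of FGF genes tested, against 13.0% of all genes. Higher calls took 4.55% and 18.2%, against 17.6% of all genes. Among the members, 1 WNT gene was tested through GF alone and 1 FGF gene through FO alone. WNT ligands, receptors and antagonists summed to 771, 705, 322 and 501 CPM in GF 1 to GF 4 and 2202, 1517, 1309 and 1972 CPM in FO 1 to FO 4. Of the 22 tested, 6 were called lower and 1 higher. SFRP1, a secreted WNT antagonist, had 235, 130.4, 89 and 124 CPM in GF against 1113, 507, 483 and 1055 CPM in FO (-2.45 ± 0.37, adjusted p = 0.000836). SFRP4 had 40.1, 27.4, 12.4 and 15.1 CPM in GF against 312, 139, 121 and 234 CPM in FO (-3.07 ± 0.42, adjusted p = 0.000506). BMP4, a ligand of the bone morphogenetic protein pathway, fell from 215, 139, 127 and 196 to 36, 31.4, 18.4 and 63.9 CPM (-2.18 ± 0.35, adjusted p = 0.00115). FGF2 fell (-2.27 ± 0.35, adjusted p = 0.000841), and so did its receptor FGFR1 (-1.68 ± 0.30, adjusted p = 0.00188), among 4 lower and 2 higher of 11 FGF genes tested (4 higher without both GF 3 and GF 4; 7 lower without both GF 3 and GF 4).

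IGF genes summed to 1032, 845, 743 and 859.5 CPM in GF 1 to GF 4 and 2261, 1641, 1507 and 2356 CPM in FO 1 to FO 4. Of the 8 tested, 4 were called lower and 1 higher. That is 50% lower and 12.5% higher, against 13.0% and 17.6% of all genes, and 1 IGF gene was tested through GF alone. The growth factors IGF1 and IGF2 fell, IGF1 from 589, 322, 276 and 434 CPM in FO to 180.1, 172, 136 and 88.9 CPM in GF (-1.49 ± 0.30, adjusted p = 0.0035) and IGF2 from 502, 502, 464 and 669 to 265, 146, 202 and 253 CPM (-1.30 ± 0.24, adjusted p = 0.00224), as did the binding protein IGFBP5 (-1.65 ± 0.29, adjusted p = 0.00155). The receptor IGF1R had 124, 151, 121 and 159.8 CPM in GF and 209.8, 203, 152 and 187 CPM in FO and was not called. Hedgehog and Notch genes had 5 of 20 called higher and 1 lower (0 lower without FO 1 or FO 2 or without both FO 1 and GF 3; 3 lower without both GF 3 and GF 4). In that list 25% were called higher and 5% lower, against 17.6% and 13.0% of all genes. PTCH1, a hedgehog receptor and itself a target of the pathway, rose from 27.8, 22.9, 23.7 and 25.1 CPM in FO to 66.5, 48.4, 59 and 44.3 CPM in GF (1.13 ± 0.24, adjusted p = 0.00458). DLL3, a Notch ligand, rose (1.55 ± 0.30, adjusted p = 0.0027). PLXNC1, a semaphorin receptor, had 84.6, 99.5, 63.6 and 67.4 CPM in GF against 5.34, 8.71, 11 and 3.4 CPM in FO (3.46 ± 0.37, adjusted p = 0.000138).

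Transcription factors changed in both directions. Nuclear receptors had 20.6% of members called each way, against 17.6% higher and 13.0% lower over all genes. Of 34 nuclear receptors, 7 were called higher and 7 lower (3 higher without both FO 1 and GF 3). NR2F2, known from stromal and interstitial cells, had 239, 174, 161 and 118 CPM in GF 1 to GF 4 and 1101, 725, 641 and 943 CPM in FO 1 to FO 4 and fell (-2.30 ± 0.27, adjusted p = 0.000248). NR6A1, the germ cell nuclear factor, rose from 10.1, 14.4, 19.4 and 17.9 CPM in FO to 69.5, 91.6, 72.1 and 67.1 CPM in GF (2.28 ± 0.27, adjusted p = 0.000255). RARA, a retinoic acid receptor, rose by 1.90 ± 0.26 (adjusted p = 0.000485). SOX6 fell from 329.8, 235, 209.9 and 258 to 53.5, 54.7, 88 and 38.6 CPM (-2.14 ± 0.28, adjusted p = 0.000376). SOX9, the factor of Sertoli cells, rose from 264, 282, 278 and 214 CPM in FO to 401, 511, 464 and 569.7 CPM in GF (0.91 ± 0.20, adjusted p = 0.00621). Of HOX genes, 4 of 13 tested were called lower and none higher (0 lower without both FO 1 and GF 3; 1 lower without FO 1; 2 lower without FO 2 or FO 4; 8 lower with DESeq2 or without both GF 3 and GF 4). Lower calls took 30.8% of HOX genes, against 13.0% of all genes. Of the members tested, 2 HOX genes and 1 nuclear receptor were tested through FO alone. HOXC6 had 27.3, 17.8, 31.1 and 29.2 CPM in GF and 30.1, 30.1, 41.8 and 49.99 CPM in FO and, of the settings run, was called only without GF 3 and GF 4 (-0.76, adjusted p = 0.0496). Potassium channels had 10 of 39 called higher and none lower (3 higher without FO 1; 5 higher without FO 4 or without both FO 1 and GF 3; 6 higher without FO 3; 1 lower without GF 1; 3 lower with DESeq2; 4 lower without GF 4; 6 lower without both GF 3 and GF 4). That is 25.6% called higher, against 17.6% of all genes, and 1 channel gene was tested through GF alone.

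Complement genes divided: CLU, counted here as a complement inhibitor, rose, while most other called members fell. The sum with CLU left out was 1436, 1113, 1002 and 1175 CPM in GF 1 to GF 4 and 3949, 3223, 2687 and 3078 CPM in FO 1 to FO 4, without overlap. Of 30 members tested, 14 were called lower and 2 higher (1 higher without FO 1, FO 4, GF 1, GF 3 or GF 4 or without both FO 1 and GF 3). That is 46.7% lower and 6.67% higher, against 13.0% and 17.6% of all genes, and 2 members were tested through FO alone. C3, the central component, had 38.2, 20.4, 29.3 and 51.6 CPM in GF 1 to GF 4 and 276, 269, 202 and 257 CPM in FO 1 to FO 4 (-2.85 ± 0.30, adjusted p = 0.000118). C1R, a protease of the classical pathway, fell from 167, 137, 94.2 and 148 CPM in FO to 26.6, 15.8, 14.1 and 14.1 CPM in GF (-2.94 ± 0.30, adjusted p = 0.000118). CFI, the protease that inactivates C3b, fell from 1433, 1071, 652 and 717 CPM in FO to 158, 138, 42.4 and 34.4 CPM in GF (-3.37 ± 0.50, adjusted p = 0.000718, and -2.70 without GF 3 and GF 4).

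Called genes of antigen presentation and of the interferon response were mostly lower too. MHC genes summed to 587, 356, 429 and 671 CPM in GF 1 to GF 4 and 1405, 922, 1071 and 1680.0 CPM in FO 1 to FO 4. Of the 20 tested, 12 were called lower and none higher (7 lower without FO 4 or without both FO 1 and GF 3). The lowest difference in this list, -2.41 on the log2 scale, was also the lowest among the proteasome genes described above. These lists therefore appear to share a member, and their lower calls may not be separate results. B2M, the light chain of MHC class I, fell from 82.6, 69.3, 62.5 and 82.3 CPM in FO to 24.9, 14, 10.2 and 16.9 CPM in GF (-2.16 ± 0.30, adjusted p = 0.000502). SLA-2, a pig class I gene with close paralogues, fell from 595, 344, 429 and 703 CPM in FO to 194, 129, 132 and 185 CPM in GF (-1.69 ± 0.27, adjusted p = 0.00106). Of 27 interferon-stimulated genes, 12 were called lower and 3 higher (0 higher without FO 4 or GF 3 or without both FO 1 and GF 3; 1 higher without FO 1, FO 2 or FO 3 or without both GF 3 and GF 4; 19 lower without both GF 3 and GF 4). IFI6 had 143, 144, 84.4 and 110.3 CPM in GF against 384, 557, 457 and 478 CPM in FO (-1.96 ± 0.24, adjusted p = 0.000278), with no overlap.

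Chemokines, interleukins and their receptors had 12 of 41 called lower and 4 higher (2 higher without FO 1, FO 3 or FO 4; 7 higher without both GF 3 and GF 4; 4 lower without FO 1 or FO 4; 5 lower without both FO 1 and GF 3; 6 lower without FO 2; 7 lower without FO 3). IL6R fell (-1.52 ± 0.23, adjusted p = 0.000831). CCR4, a chemokine receptor known from T cells, went the other way, with 4.26, 7.17, 6.01 and 8.08 CPM in GF and 0 counts in all FO libraries, at least 36.8-fold higher against 3 counts over the FO group. The T cell genes CD3D, CD3E and CD3G were at 0 in all 8 libraries. S100 proteins and annexins, which bind calcium, summed to 1631, 1358, 1314 and 1924 CPM in GF 1 to GF 4 and 3156, 3114, 2958 and 3169 CPM in FO 1 to FO 4. Of the 21 tested, 12 were called lower and none higher (7 lower without both FO 1 and GF 3). Lower calls took 57.1% of these and 29.3% of the chemokine list, against 13.0% of all genes. In the chemokine list 9.76% were called higher, against 17.6% of all genes. Of that list, 1 gene was tested through GF alone and 2 through FO alone. S100A4, a marker of fibroblasts and some leukocytes, had 6.61, 7.35, 3.53 and 3.86 CPM in GF 1 to GF 4 and 42.1, 87.1, 42.2 and 71.3 CPM in FO 1 to FO 4 (-3.46 ± 0.38, adjusted p = 0.000144), S100A6 fell by 2.19 (adjusted p = 0.00139) and ANXA5 by 1.60 (adjusted p = 0.00186). CTSB, a lysosomal protease, fell from 388, 462, 429.6 and 410.1 to 260.1, 198, 152 and 166 CPM (-1.12 ± 0.22, adjusted p = 0.00319).

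Markers of other cell types were set beside these results. The 14 macrophage genes summed to 74.8, 73.5, 77.7 and 53.4 CPM in GF 1 to GF 4 and 199.7, 166, 160.3 and 279 CPM in FO 1 to FO 4. Of the 8 tested, 6 were called lower (2 lower without FO 4 or without both FO 1 and GF 3; 3 lower without FO 1, FO 2 or FO 3 or with total count scaling). That is 75%, against 13.0% of all genes, and 1 macrophage gene was tested through FO alone. CD14, a macrophage receptor, had 0.853, 0.897, 2.83 and 1.05 CPM in GF against 13.2, 8.5, 11 and 13.6 CPM in FO (-3.08 ± 0.55, adjusted p = 0.00188, and -3.67 without GF 3 and GF 4). The 14 endothelial genes summed to 116, 59, 112 and 117 CPM in GF 1 to GF 4 and 187, 152, 171 and 347 CPM in FO 1 to FO 4. EMCN, a vessel sialoprotein, fell (-3.17 ± 0.48, adjusted p = 0.000775). PECAM1 had 20.7, 9.68, 18.4 and 6.32 CPM in GF and 15.7, 12, 18.8 and 47.4 CPM in FO and was not called. CLDN5, which seals vessels, was at 0 in all GF libraries. These lists moved in the same direction as complement, MHC and interferon genes, and their part in those results was not tested. Of 13 lymphocyte genes, 8 were at 0 in all GF libraries and 4 in all FO libraries, and the sums were 17.7 to 24.6 CPM in GF and 18.6 to 33.6 CPM in FO. Of 6 fat cell genes tested, 4 were called higher and none lower (2 higher without both FO 1 and GF 3; 1 lower without GF 3, without both FO 1 and GF 3 or without both GF 3 and GF 4), with sums of 199 to 510.2 CPM in GF and 71.9 to 135 CPM in FO, though CIDEC and PLIN4 were at 0 in all GF libraries. Higher calls took 66.7% of fat cell genes, against 17.6% of all genes, and 1 was tested through GF alone. CIDEA, a lipid droplet protein, had 75.7, 77.5, 155 and 218 CPM in GF against 7.86, 13.7, 26.6 and 14.7 CPM in FO (3.05 ± 0.44, adjusted p = 0.000632, and 2.27 without GF 3 and GF 4).

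Markers of skin, nerve and cartilage were looked at in the same way. Epidermal genes summed to 41.1 to 87.4 CPM in GF and 99.3 to 117 CPM in FO, and of 13 found, DSC3, DSG1, DSG3, IVL, KRT1 and KRT5 were at 0 in all FO libraries and IVL in all GF libraries. Schwann cell and nerve genes summed to 260 to 325 CPM in GF and 396 to 454 CPM in FO, and cartilage genes, which overlapped, to 182 to 753 CPM in GF and 156 to 307 CPM in FO. Of 16 skeletal muscle genes found, 5 were tested, and 2 were called higher and none lower (1 higher without both GF 3 and GF 4; 1 lower without GF 3). TNNT1, a troponin of slow muscle, had 11.3, 16, 60.4 and 60.1 CPM in GF and 2.25, 4.36, 6.76 and 1.49 CPM in FO (3.28 ± 0.65, adjusted p = 0.0031, and 1.86 without GF 3 and GF 4). PVALB, a calcium buffer of fast muscle and some other cells, had 44.1, 34.8, 59.4 and 92 CPM in GF and 17.4, 2.18, 16.3 and 1.7 CPM in FO (2.62 ± 0.66, adjusted p = 0.011). Neither pair of groups overlapped, and PVALB was not called without GF 3 and GF 4 (2.10, adjusted p = 0.125). The sums overlapped, and FO 1 was the highest library for TTN and ACTA1. TTN, titin, had 6.61, 21.7, 114 and 9.13 CPM in GF and 211, 3.7, 3.8 and 4.68 CPM in FO and ACTA1, skeletal actin, had 0.853, 3.23, 74.2 and 0 CPM in GF and 229.8, 2.4, 1.48 and 3.83 CPM in FO. Neither was called, and the groups overlapped. Without FO 1, TTN was called higher in GF (3.21, adjusted p = 0.0389), the opposite sign of its difference with all libraries (-0.57).

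The labelled fibroblast-only grafts also carried genes of other testis cells. INSL3, the peptide hormone of Leydig cells, had 2393, 1035, 1102 and 1632 CPM in GF 1 to GF 4 and 274, 1067, 2788 and 505 CPM in FO 1 to FO 4, with FO 3 the highest of all libraries, and it was not called (0.41 ± 0.57, adjusted p = 0.614). WT1, made by Sertoli and some stromal cells, was higher in FO, with 516, 486, 357 and 504 CPM against 235, 205, 154 and 257 CPM in GF (-1.13 ± 0.23, adjusted p = 0.00361). AMH, the Sertoli cell hormone, had 45, 32.3, 139 and 191 CPM in GF and 5.9, 8.06, 31.7 and 6.38 CPM in FO (2.95 ± 0.67, adjusted p = 0.00662). The AMH difference was 3.91 without FO 3, and it was not called without GF 3 and GF 4 (1.55, adjusted p = 0.127) or without FO 1 and GF 3 (2.52, adjusted p = 0.0679). MRO, a gene of the developing testis listed here with Sertoli cells, rose from 37.6, 83.6, 79 and 26.8 CPM in FO to 259, 336, 263 and 358 CPM in GF (2.42 ± 0.36, adjusted p = 0.000682). Of 15 Sertoli genes tested, 7 were called higher and 1 lower (3 higher without both FO 1 and GF 3; 2 lower without GF 4 or with DESeq2; 3 lower without both GF 3 and GF 4), and the sums overlapped at 3246 to 8055 CPM in GF and 3213 to 4615 CPM in FO, with GATA1, INHBB and SHBG at 0 in all 8 libraries. HSD17B3, an enzyme that makes testosterone, rose from 27.8, 72.5, 75.2 and 15.7 to 259.9, 293, 187 and 290.1 CPM (2.43 ± 0.44, adjusted p = 0.00196). Of 10 Leydig genes, 2 were called higher and 1 lower (1 higher without FO 1, FO 2, FO 4, GF 3 or GF 4, without both FO 1 and GF 3 or without both GF 3 and GF 4; 4 higher with the replicate block; 5 higher without FO 3; 0 lower without FO 2, FO 3, FO 4, GF 2, GF 3 or GF 4, with total count scaling, with the replicate block or without both GF 3 and GF 4). Peritubular myoid genes had sums of 1836, 2047, 2226 and 2876 CPM in GF 1 to GF 4 and 1288, 1294, 1320.5 and 1315 CPM in FO 1 to FO 4 and 6 of 10 called higher. This list shares members, MYH11 among them, with the contractile genes described above, so the calls of these lists are not separate results. Higher calls took 46.7% of Sertoli, 20% of Leydig and 60% of myoid genes tested, against 17.6% of all genes. Lower calls took 6.67%, 10% and 0%, against 13.0% of all genes.

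The 4 GF libraries differed among themselves more than the 4 FO libraries did. The median SD of log2 CPM over genes was 0.628 in GF and 0.306 in FO, and the SD was larger in GF for 11372 of the 13782 genes (82.5%). An SD above 1 was seen for 3250 genes in GF and 301 in FO. Pearson r between libraries, over genes, which are not independent, was 0.816 to 0.948 within GF, 0.949 to 0.971 within FO and 0.597 to 0.878 between GF and FO libraries. With genes divided into 5 equal classes by average level, the median SD was 1.02 in GF and 0.482 in FO in the lowest class, and 0.436 and 0.222 in the highest.

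**Figure D4:**
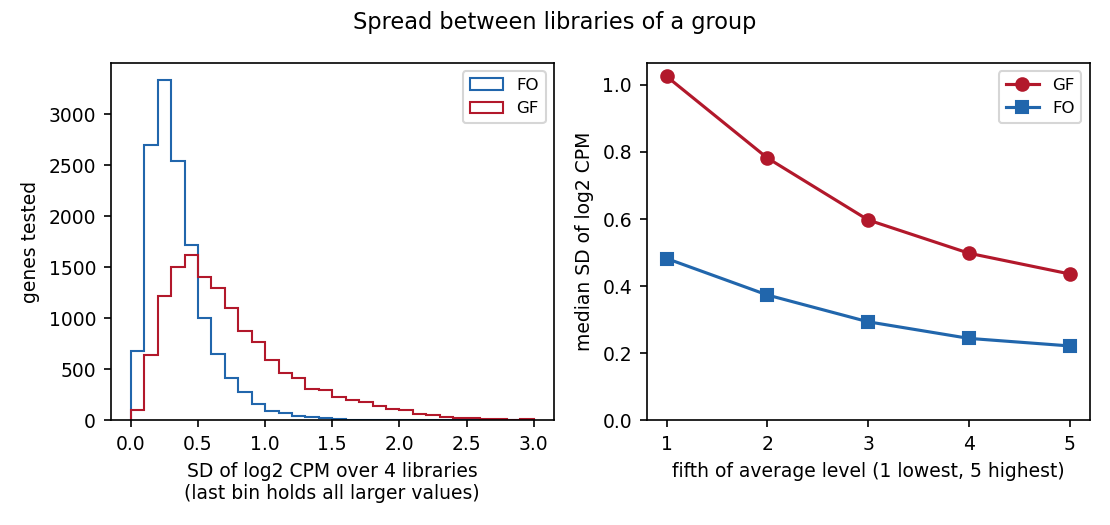
Left, number of genes tested by the SD of their log2 CPM over the 4 libraries of a group, for GF and FO; right, the median SD in each of 5 equal classes of genes by average level. The GF medians lie above the FO medians in all 5 classes, falling from 1.02 to 0.436 in GF and from 0.482 to 0.222 in FO.

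GF 1 was nearest to FO and GF 3 and GF 4 farthest. Called genes were chosen by the difference between these same libraries, so their counts and shares below partly restate this order. Of the 2419 genes called higher, GF 3 was the highest GF library in 1171, GF 4 in 775, GF 2 in 390 and GF 1 in 83. Of the 1786 called lower, GF 3 was the lowest in 788, GF 4 in 620, GF 2 in 289 and GF 1 in 89. Over all 13782 genes tested the counts were more even. The highest GF library was GF 1 in 3489, GF 2 in 2976, GF 3 in 3702 and GF 4 in 3615. The lowest was GF 1 in 2629, GF 2 in 2815, GF 3 in 4140 and GF 4 in 4198. Genes called higher took 18.1, 21.8, 31.8 and 28.7% of the counts of GF 1 to GF 4, and 6.28 to 9.30% in FO. GF 3 and GF 4 were both at least 2-fold above both GF 1 and GF 2 in 793 genes and below them in 1145, together 14.1% of genes tested, whereas FO 3 and FO 4 stood that far from FO 1 and FO 2 in 1.02%. GF 3 and GF 4 also differed from each other, since the second principal component (16.1% of the variance) placed GF 4 at the opposite end from the other GF libraries. Some genes were at 0 in a single library. RRAGA, a GTPase of nutrient sensing, had 83.8, 53.6, 42 and 0 CPM in GF and 83.7, 93.2, 73.7 and 73.8 CPM in FO, with 0 counts in GF 4, and CBFB, a partner of RUNX factors, had 36.5, 41.4, 12.7 and 0 CPM in GF and 37.6, 33.5, 23.7 and 21.1 CPM in FO, again with 0 in GF 4. S100A2 had 43.7, 47, 0 and 1.41 CPM in GF and 89, 138, 80.5 and 62.8 CPM in FO. Its groups did not overlap, it was not called (-1.97 ± 0.90, adjusted p = 0.118), and it was called with the replicate number as a block (-2.97, adjusted p = 0.0228) and without GF 3 and GF 4 (-1.02, adjusted p = 0.0103). In FO, CBR1, a carbonyl reductase, was among the genes that varied most, with 4.21, 53.8, 208 and 5.11 CPM in FO and 255, 136, 137 and 158 CPM in GF, and, of the settings run, it was called higher only without FO 3 (3.03, adjusted p = 0.0183).

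Differences were not even over the genome. By chromosome of the pig build Sscrofa11.1, the median log2 fold change was 0.25 on chromosome 12, 0.22 on chromosome 3 and 0.20 on chromosome 6, and -0.34 on chromosome 16, -0.30 on chromosome 1 and -0.22 on chromosome 9. On chromosome 12, 23.3% of 793 genes were called higher and 6.43% lower, and on chromosome 16, 10.7% of 262 were called higher and 15.6% lower. Over the 18 autosomes this median followed the number of protein-coding genes per megabase, with a Spearman rho of 0.69, which is a description over chromosomes that share the same libraries. The rho was 0.50 without GF 3 and GF 4. Each library's own median deviation from the FO mean followed gene density too, with rho of 0.57, 0.47, 0.71 and 0.82 in GF 1 to GF 4. The FO libraries were split, at -0.76 in FO 1 and FO 2 and at 0.83 and 0.76 in FO 3 and FO 4, with far smaller shifts. Deviations of the FO libraries from their own mean cancel within each gene, so opposite signs among them are largely built in. The GF values all share that FO mean and are therefore not separate observations. Gene length ran alongside in part. With genes divided into 5 equal classes by their span in the genome, the class of the longest genes had a median of -0.21, with 13.9% called higher and 18.4% lower. The class next to the shortest had a median of 0.15, with 20.3% called higher and 9.21% lower.

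**Figure D5:**
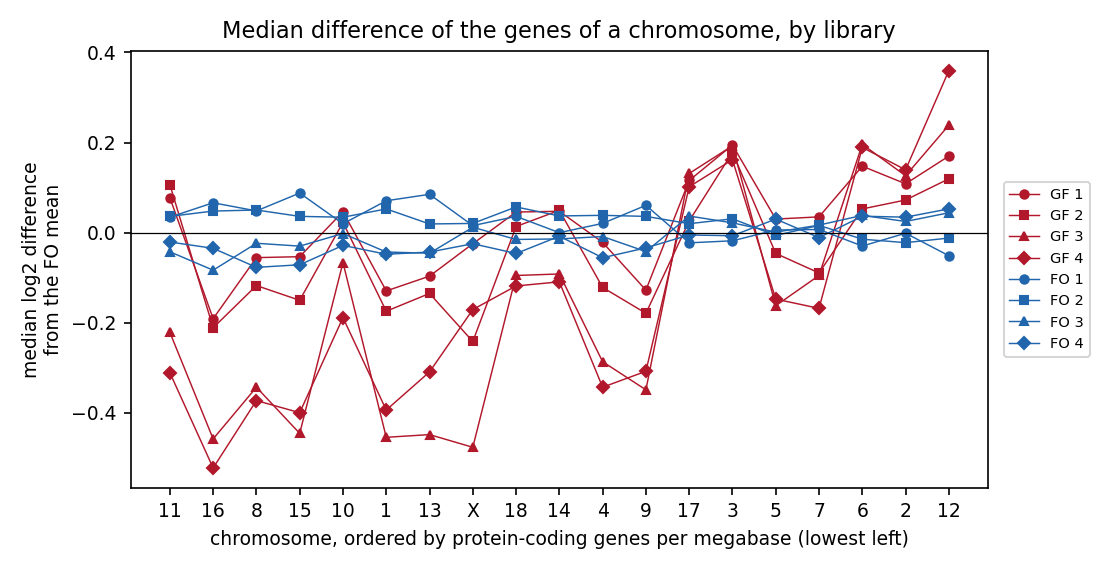
Median over the tested genes of a chromosome of the log2 difference from the FO mean, for each library (GF red, FO blue), with chromosomes ordered from the fewest to the most protein-coding genes per megabase. GF 3 and GF 4 reach medians below -0.3 on gene-poor chromosomes and above 0.1 on chromosomes 2, 3, 6, 12 and 17, and the FO libraries stay nearer to 0.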

How the data were processed

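Raw counts per gene were deposited by the authors as 1 table of whole numbers, from 3' end RNA libraries (QuantSeq kit, Trizol RNA, per the labels). The submitters' processing notes list DESeq2 1.42.0 and the build Sscrofa11.1, with no role. The aligner, counter and strand setting were not given in the sources used here, and antisense, overlapping and near-identical genes are therefore uncertain. Columns were matched to samples by title, with the columns named F taken as FO. Gene positions, spans and mitochondrial symbols came from the RefSeq table of the same build, which 26812 of 27376 names matched directly.

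Genes were filtered with filterByExpr (minimum count 10), scaled with TMM and tested with edgeR 4.0.16 in R 4.3.3 (quasi-likelihood F test, robust, no covariate), with Benjamini-Hochberg adjustment over all 13782 genes. The SE is the size of the log2 fold change over the root of F. Families were taken by symbol pattern and summed over all members found. For a gene at 0 throughout a group, the bound was taken against 3 counts summed over the group. With 1 to 3 counts, a ratio with an exact 95% counting interval is printed. Counting intervals and floors cover counting error only and treat reads as independent.

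The comparison, the families, the gene rule and the alternatives were chosen with earlier results of these data known. Named genes are the called genes with the largest gain or loss in mean CPM among groups that do not overlap, up to 4 called members of each family by p and up to 2 abundant uncalled ones, the genes that vary most within a group, abundant genes whose interval lies within 1.5-fold, and DDX4, DAZL, PRM1, TNP1, CLU, AMH, INSL3 and COL1A1; only some are printed, and a few genes are not reported here. Alternatives were DESeq2 1.42.0, other scalings and filters, a fold threshold, a replicate block, thinning to equal totals, and leaving out libraries.

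On pairing, same-numbered GF and FO libraries deviated from their group means with correlations of 0.105, 0.258, 0.117 and 0.114. GF 1 correlated more with FO 2 (0.132) and GF 4 more with FO 3 (0.149). These values do not show that equal numbers pair the libraries. The main test was therefore left unpaired, and the replicate number as a block, an alternative, called 2273 genes higher and 2062 lower. On simulated counts for 13469 genes, the test recovered 56 of 91 genes changed 4-fold and 1 of 96 changed 2-fold, with 1 false call among 58. Far fewer genes were changed there than the 4205 called here, which makes the adjusted threshold stricter. Both groups were also given the same spread per gene, unlike the wider spread in GF. These rates therefore do not measure how the test performed on the data. No column of an unlisted sample was present.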

Additional observations from a re-analysis of the deposited data

Results flagged for a closer look

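Each value here is the gap between 1 library and its nearest neighbour, as a share of the range of the 4 libraries of its group, where that share exceeded Dixon's 95% critical value. Of 406 groups of 4 libraries looked at, for named genes and family sums, 23 exceeded it, and chance does so in about 1 in 20.

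GF 3 was the odd library in 5 groups. It was high for DNAH9 (0.882, at 27.9 CPM against 15.6 to 16.7 CPM in the other GF libraries) and for CD14 (0.845), and low for CDH6 (0.859), ACTA2 (0.852) and FGF2 (0.884). GF 4 was low for RRAGA (0.868, at 0 counts) and for the summed macrophage genes (0.852), and high for the summed solute carriers (0.876) and potassium channels (0.843). GF 2 was high for CENPV (0.896, at 330 CPM against 149 to 162 CPM) and low for the summed endothelial genes (0.936). GF 1 was high for RPL34 (0.86).

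FO 1 was high for TTN (0.946), ACTA1 (0.834) and the summed skeletal muscle genes (0.857), high for TNP1 (1, where it held the only FO counts), and low for the summed germ cell isoenzymes (0.91). FO 2 was high for GTSF1 (0.855) and low for KIF15 (0.842). FO 3 was low for CFAP97 (0.871), WT1 (0.838) and the summed axonemal dyneins (0.904), and high for TUBB4B (0.902).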

How the results depend on the processing

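Against a fold threshold of 1.5, 2456 genes were called (1547 higher, 909 lower) and 489 family members. Without FO 1 and GF 3, 2312 genes were called (1369 higher, 943 lower) and 454 family members, against 762 with all libraries. Leaving out each library in turn gave 2902 to 4842 genes called, 1887 to 2694 higher, 1015 to 2148 lower, 542 to 851 family members, 1746 to 3012 genes within a 2-fold interval, and a ratio of the median SD of GF to FO of 1.72 to 2.32. Other counts of calls stayed within 1.5 times: 5147 with DESeq2, 4225 with RLE factors, 4607 with no filter, 5485 with all 10 libraries in the fit, 3827 after thinning to the lowest total, and 4335 (2273 higher, 2062 lower) with the replicate number as a block, which among the named genes changed only the call of S100A2. Against the fold threshold, RPLP2, COL1A1 and SOX9 also lost their calls (adjusted p = 0.0961, 0.134 and 0.0901). TTN reversed without FO 1 (3.21, adjusted p = 0.0389), and leaving out 1 library gave it -2.13 to 3.21. Of 147 named genes under all settings, 2909 of 2935 values kept direction and side of the threshold, 21 lost the call, 4 gained it and 1 reversed, in 12 genes; of 2240 family counts, 354 moved by over 1.5 times. Depth limits genes low in GF 3 and GF 4 most, where 3 counts are 1.03 and 1.02 CPM. The causes were not tested.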
